A study of Mus musculus with 16 samples.

Results

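The genes described here encode the protein components of the cytosolic ribosome, measured in the brown adipose tissue (BAT) and gonadal white adipose tissue (gWAT) of mice whose adipocytes lack the glycolytic enzyme Pgam1. Members were taken by symbol: every gene whose name begins with Rpl or Rps followed by a digit, together with Rplp0, Rplp1, Rplp2 and Rpsa, leaving out the Rps6 kinases and genes named as pseudogenes. Of the 22911 gene symbols that could be assigned to a probe, 89 were members. Of these, 31 were the core proteins of the small (40S) subunit, 46 were the core proteins of the large (60S) subunit, and 12 were paralogs, retrocopies or genes that share the name. Expression was measured on 16 single-colour Agilent arrays, 4 for each combination of tissue and genotype. Adipo-Pgam1 KO mice carried Cre recombinase under the adiponectin promoter (Adipoq-Cre) with floxed Pgam1, and littermate controls carried Pgam1 flox/flox without Cre. All mice were males of strain C57BL/6NCrSlc kept at 23 °C with 12 h of light and 12 h of dark. Mice were 16 weeks old by the labels, and replicate 4 of the knockout was 14 weeks old in either tissue. The promoter acts in adipocytes, whereas the RNA came from whole tissue, so fewer cells of a type and less RNA per cell cannot be told apart in these arrays.

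Each cytosolic ribosome is built from ribosomal RNA and a fixed set of proteins, generally present in single copies, which are made in the cytoplasm, imported into the nucleolus and assembled there. The mRNAs of these proteins belong to the most abundant in a cell, and most begin with a pyrimidine-rich stretch, the 5′ terminal oligopyrimidine (TOP) motif, through which their translation is controlled by mTOR signalling. The acidic P proteins Rplp0, Rplp1 and Rplp2 form the stalk that recruits elongation factors. Some members have paralogs that can take the place of the core protein in particular tissues, such as Rpl3l in striated muscle and Rpl39l and Rpl10l in testis. In quantitative PCR, Rplp0 is widely used as a reference gene, and in the study it served with Actb for this purpose.

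Promoter sequences of 68 members were found in RefSeq (GRCm38.p6). The windows below run from 10 bases before to 20 bases from the annotated start of transcription, 5′ to 3′ on the transcribed strand, and are shown for the 4 core genes with the largest rise in BAT of Adipo-Pgam1 KO mice and the 3 with the lowest values, among those with a listed promoter. Capitals mark CTTTC or CTTTTC, the pyrimidine runs searched for on the transcribed strand.
Rpl12, chr2:32961702-32961731, plus strand: agcaggatccgtCTTTTCggCTTTCggctc
Rps12, chr10:23787190-23787219, minus strand: tcatgcggccaccgccggcCTTTTCccctg
Rpl5, chr5:107900518-107900547, plus strand: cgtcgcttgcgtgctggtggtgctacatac
Rpl39, chrX:37085203-37085232, minus strand: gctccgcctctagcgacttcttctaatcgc
Rplp2, chr7:141447641-141447670, plus strand: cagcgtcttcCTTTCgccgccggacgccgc
Rpl11, chr4:136053374-136053403, minus strand: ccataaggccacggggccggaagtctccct
Rpl28, chr7:4792955-4792984, plus strand: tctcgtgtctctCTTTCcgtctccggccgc
The run occurred both in genes with large rises and in genes at the other end of the range. Within 20 bases before to 50 bases after an annotated start, 36 of 57 core genes with a promoter (63.2%) held CTTTC or CTTTTC, against 12.7% of all 27025 genes in the promoter table. The sequence CGGAAG, whose opposite strand can share an end base with the pyrimidine run and which was searched on both strands of the whole 300 bases, was present in 40 of these 57 core genes (70.2%) and in 18.8% of all genes. Among the 56 of them that were tested, the median log2 difference between genotypes in BAT was 0.52 for the 35 with the pyrimidine run and 0.44 for the 21 without it, and 0.52 for the 39 with CGGAAG and 0.48 for the 17 without it.

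Of the 89 members, 85 were well above background on every array, including 76 of the 77 core genes. The probe of the remaining core gene, Rpl37, was above background on 1 array, whereas the probe of its retrocopy Rpl37rt stood between 7.88 and 8.83 on the log2 scale relative to the 75th percentile of its array, which is the scale of every level given here. Rpl37, Rpl3l and Rpl10l were not tested in any comparison. Pgam1 was lower in BAT of Adipo-Pgam1 KO mice (log2 difference -1.74, SE 0.11) but higher in gWAT arrays with the label Adipo-Pgam1 KO than in gWAT controls (0.95, SE 0.19), so directions in gWAT rest on the label. The summed brown adipocyte markers, 8 genes, also separated the gWAT arrays by label, at 6.06 to 7.46 on those labelled knockout and 3.87 to 4.57 on controls. The single markers did not all go the same way. Of the 6 tested in gWAT, 3 were higher and 1 was lower at a limma adjusted p under 0.05, against 9.99% and 7.85% of all genes. Ucp1 and Zic1 were well above background on no gWAT control array, and Zic1 on no gWAT array labelled knockout. The arrays lay on 3 slides: 1 BAT control and all BAT knockout arrays shared slide 2, and 1 gWAT control and all gWAT arrays labelled knockout shared slide 3. Slide 3 was scanned on a different day from the other slides. Adipocyte markers were expressed on every array, and so were the brown adipocyte markers in BAT.

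In BAT, cytosolic ribosomal protein genes were predominantly expressed at a higher level in Adipo-Pgam1 KO mice than in controls. Of the 86 members tested, 60 rose and 3 fell past an adjusted p of 0.05 in limma, so that 69.8% rose, against 27.5% of all 14280 genes tested, of which 61.5% changed in either direction. The fallers were Rplp2, Rpl7l1 and Rps4l, against 34% of all genes. The median log2 difference over the members was 0.47, whereas it was -0.08 over all genes tested. Both subunits gave similar counts: 23 of 31 core 40S genes rose, with a median of 0.51, and 33 of 45 core 60S genes rose, with a median of 0.47. None of the 40S genes fell in limma, and none did at an unadjusted p of 0.05 or in the methods' t-test. The groups did not overlap, with the knockout arrays higher, in 52 members, a pattern found in 25.2% of all genes tested, and with the knockout arrays lower in 1, a pattern found in 32% of all genes.

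The arrays were not equally far apart. For each of the 76 core genes, the level on an array was set against the gene's mean over the 16 arrays. The median of these deviations lay between -0.18 and -0.09 on the 4 BAT control arrays. On the BAT knockout arrays it was 0.04 in replicate 1, 0.44 in replicate 2, 0.49 in replicate 3 and 0.48 in replicate 4. Replicate 1 was thus nearer to the controls than the others, and it was the lowest knockout array in 76 of 76 core genes. The median SD of a core gene was 0.06 among the BAT controls, smaller than the 0.18 of all genes measured there, and 0.22 among the BAT knockout arrays, against 0.19. Summed skeletal muscle markers, 10 genes of which 5 were well above background on all 4 arrays, stood at 7.17 in replicate 1, between 2.86 and 4.83 in the other knockout arrays and between 5.34 and 5.62 in controls, and the part of muscle RNA in its lower ribosomal values was not tested. Without this array, 72 members rose and 2 fell, and the share of all genes in that fit is not given here. A fixed block for the slide sets the knockout arrays against the 1 control on their slide, and with it 40 members rose and 0 fell, while all 63 members past the threshold kept their direction.

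**Figure D1:**
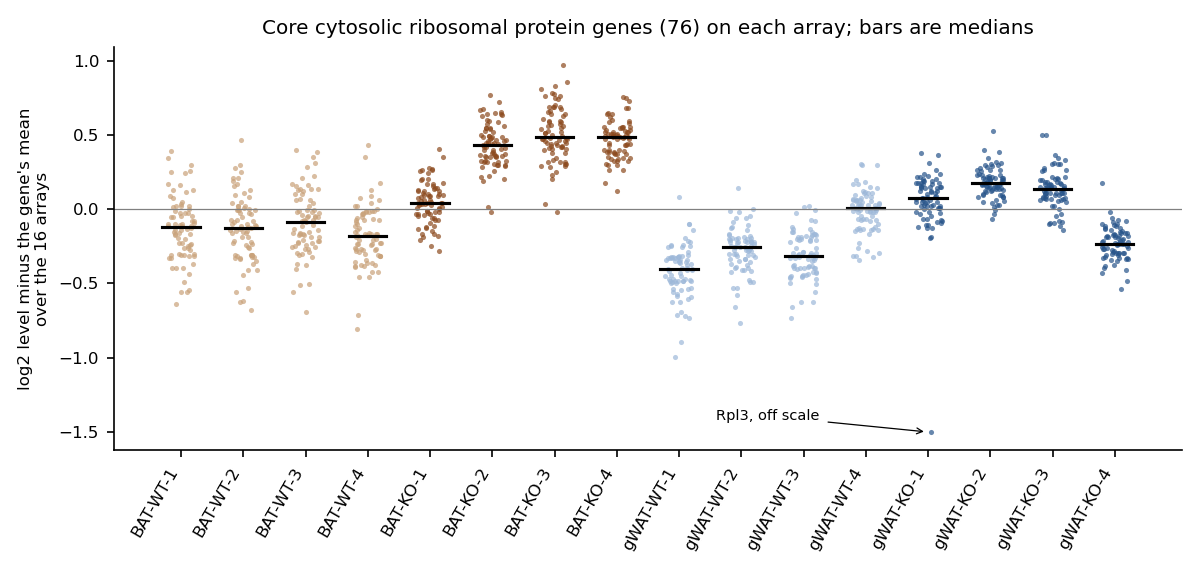
Each point is 1 of 76 core ribosomal protein genes on 1 array, as its log2 level minus the mean of the gene over the 16 arrays (vertical axis), with arrays grouped by tissue and genotype along the horizontal axis and the median drawn as a black bar. The BAT knockout arrays of replicates 2 to 4 have medians from 0.44 to 0.49, above those of all other arrays, and 1 value of Rpl3 in gWAT lies off the scale.

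Among the core genes, Rpl12, Rps12, Rpl5 and Rpl32 changed most. Rpl12, a protein at the base of the P stalk, was 6.68, 6.65, 6.62 and 6.47 on the control arrays and 7.45, 7.95, 8.15 and 7.91 on the knockout arrays. All knockout arrays were above all controls, by 1.26 in the mean (SE 0.15, limma adjusted p = 1.38e-04), a fold of 2.39. Its second probe gave 1.1. Rps12, a protein of the small subunit, was 7.07, 7.08, 7.02 and 6.90 in controls and 7.85, 8.30, 8.40 and 8.26 in the knockout. Here too the groups were apart, with a log2 difference of 1.18 (SE 0.13). Rpl5, which together with Rpl11 brings a small ribosomal RNA into the large subunit and when free binds Mdm2, was 4.35, 4.33, 4.38 and 4.58 in controls and 5.15, 5.56, 5.72 and 5.53 in the knockout. The difference was 1.08 (SE 0.14). Rpl32, a 60S protein, ranged from 6.67 to 6.90 in controls and from 7.53 to 7.98 in the knockout, a rise of 1.07 (SE 0.12). These 4 genes kept their direction under every scaling tried.

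The stalk proteins did not move together. Rplp0 was 6.91, 6.93, 6.95 and 7.12 in controls and 7.49, 7.86, 7.90 and 7.79 in Adipo-Pgam1 KO mice, a rise of 0.78 (SE 0.12, limma adjusted p = 4.52e-04). Rplp1 rose by 0.85 (SE 0.13), with controls between 7.13 and 7.28 and knockout arrays between 7.73 and 8.25. In contrast, Rplp2 was 8.96, 9.08, 9.01 and 9.04 in controls and 8.33, 8.62, 8.59 and 8.79 in the knockout. All knockout arrays were below all controls, with a log2 difference of -0.44 (SE 0.11, limma adjusted p = 0.00845). This direction depends on the scaling. Before scaling, the signal of the single Rplp2 probe was higher in the knockout, at 287276 to 354039 against 207095 to 237649, while the 75th percentile of the arrays was 650 to 916 against 401 to 451. The difference was 0.36 under quantile normalization and 0.11 under spike-in scaling. Rpl11 ranged from 8.20 to 8.58 in controls and from 7.98 to 8.35 in the knockout, with overlapping groups and a log2 difference of -0.25 (SE 0.12, limma adjusted p = 0.113), which was 0.38 under quantile normalization. The remaining member of the named 4, Rpsa, a 40S protein also known as a laminin receptor precursor, rose by 0.52 (SE 0.10). Across 75 core genes, leaving out Rpl3 for a single aberrant spot in gWAT, the difference in BAT was smaller for probes that were brighter in controls (Spearman's rho -0.49). These genes share arrays, depth of labelling and scanner range, and the part of signal compression in bright probes was not tested. No spot was flagged as saturated.

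Paralogs did not always follow their core partners in BAT. Rpl22, an RNA-binding 60S protein, was 5.92, 5.90, 5.92 and 5.80 in controls and 5.95, 6.45, 6.61 and 6.45 in the knockout, a rise of 0.48 (SE 0.14). Rpl22l1, its paralog, was 4.69, 4.69, 4.97 and 4.94 in controls and 5.64, 6.03, 6.27 and 5.81 in the knockout, a rise of 1.12 (SE 0.15). The knockout arrays were above the controls for both genes, though replicate 1 barely so for Rpl22. Rpl39l was -0.43, 0.16, -0.26 and 0.03 in controls and 0.96, 1.61, 1.17 and 2.48 in the knockout, a rise of 1.68 (SE 0.31, limma adjusted p = 0.00158), and its partner Rpl39, which lies near the exit tunnel of the ribosome, rose by 1.0 (SE 0.14). Rpl36a and Rpl36al rose by 0.97 (SE 0.13) and 0.62 (SE 0.10). The retrocopy Rpl32l rose by 0.95 (SE 0.11) beside Rpl32, but probes for such near-identical copies may bind the transcripts of either gene. On the other hand, Rps27l, a paralog induced by p53, had a log2 difference of 0.04 (SE 0.12), while Rps27 rose by 0.46 (SE 0.15). Rps4l fell by 0.33 (SE 0.12, limma adjusted p = 0.0412) while Rps4x rose by 0.71 (SE 0.12). Rpl7l1, a nucleolar relative of Rpl7, was 0.91, 0.88, 0.99 and 0.68 in controls and 0.11, 0.33, 0.40 and 0.70 in the knockout. The groups overlapped slightly, and the difference was -0.48 (SE 0.14, limma adjusted p = 0.0149), whereas Rpl7 rose by 0.34 (SE 0.11). The directions of Rps4l and Rpl7l1 were turned by spike-in scaling, to 0.22 and 0.07, and neither was past the threshold with the slide as a fixed block. Rpl10 rose by 0.62 (SE 0.10) and Rpl3 by 0.28 (SE 0.10). Rps19bp1, which shares the name but regulates Sirt1, had a difference of -0.10 (SE 0.13). Rpl3l, the muscle paralog, was well above background on 4 arrays, all in BAT, and was highest in replicate 1 of the BAT knockout, at -1.63, the array with the highest muscle markers.

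**Figure D2:**
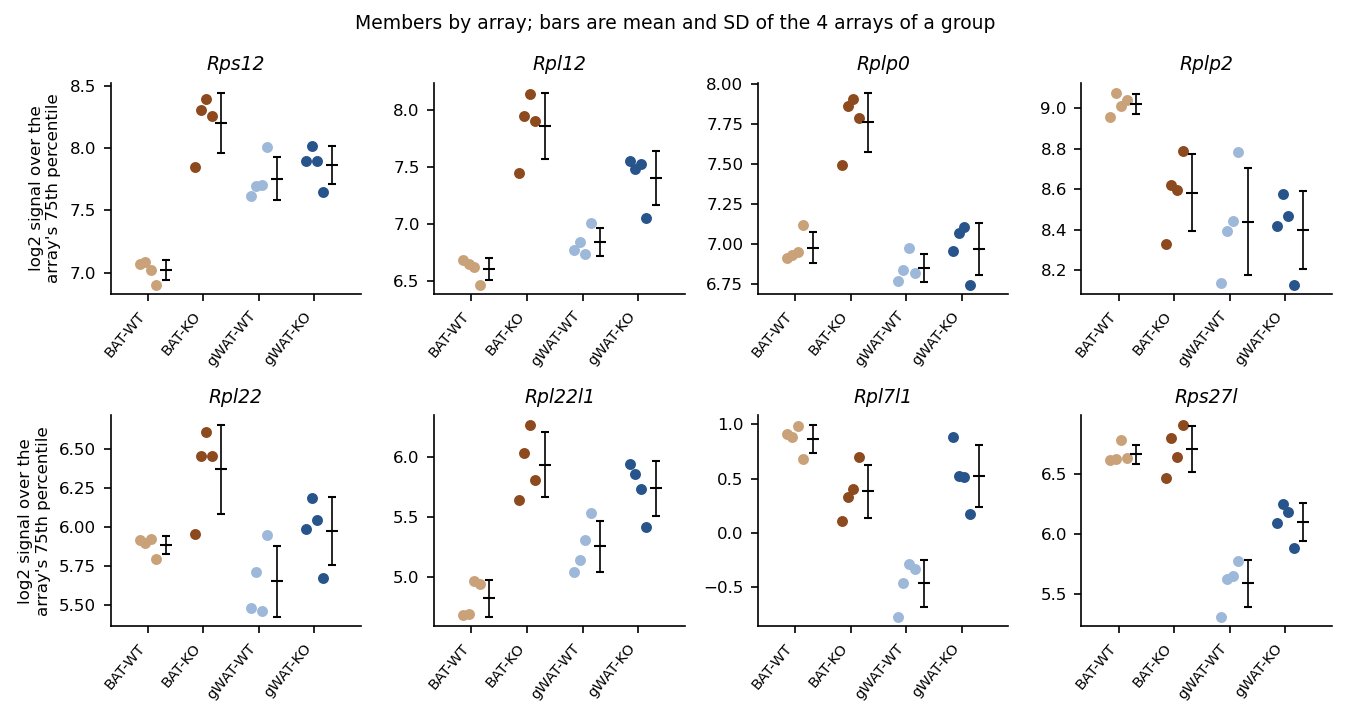
Each panel shows 1 gene on the 16 arrays, with its log2 signal over the 75th percentile of the array on the vertical axis (a separate range for each gene) and the 4 groups on the horizontal axis. Points are arrays in replicate order, and the bars beside them give the mean and SD of the 4 arrays. Rps12, Rpl12 and Rplp0 were higher on every BAT knockout array than on any BAT control, and Rplp2 was lower.

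In gWAT, few members were past the threshold when the arrays labelled Adipo-Pgam1 KO were compared with controls. Of the 85 members tested, 9 were higher and 1 was lower, so that 10.6% were higher, against 9.99% of all 14149 genes tested. The share of ribosomal protein genes past the threshold was thus near that of all genes. The single lower member was Rps23rg1, against 7.85% of all genes. The groups were apart, with the arrays labelled knockout higher, in 7 members, against 13.4% of all genes. The median difference was 0.26 over the members and 0.05 over all genes. None of the 76 core genes was lower in limma, at an unadjusted p of 0.05 or in the methods' t-test. Of the 4 core genes with the largest rises in BAT, Rpl12 alone was past the threshold. Rps2, a protein at the entry of the mRNA channel, was 5.39, 5.73, 5.77 and 6.08 in controls and 6.76, 6.79, 6.89 and 6.28 in the arrays labelled knockout, a difference of 0.94 (SE 0.19, limma adjusted p = 0.0148). Rpl7l1 was -0.77, -0.46, -0.29 and -0.33 in controls and 0.88, 0.53, 0.52 and 0.18 in the arrays labelled knockout, a difference of 0.99 (SE 0.18). The groups were apart for both genes. The 60S proteins Rpl15, Rpl19 and Rpl12 were higher by 0.64 (SE 0.15), 0.58 (SE 0.15) and 0.57 (SE 0.15). Rps3, of the 40S subunit, was higher by 0.49 (SE 0.14) and Rps27l by 0.51 (SE 0.14). Rpl7a was higher by 0.78 (SE 0.16) on its brightest probe, but its other probe gave -0.01. Rps23rg1, a retrocopy of Rps23, was lower by 0.74 (SE 0.14), with values of -1.18 to -0.97 in controls and -2.11 to -1.61 in the arrays labelled knockout. Rplp0 differed by 0.12 (SE 0.13), Rplp1 by 0.46 (SE 0.16), Rplp2 by -0.04 (SE 0.17) and Rpsa by 0.29 (SE 0.18), and none of them was past the threshold. Rpl3 had a value of 0.90 on replicate 1 of the arrays labelled knockout and 6.58 to 6.94 on the others, which set its difference of -1.17, whereas its other probes gave 0.49 and 0.76.

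Label and slide were nearly confounded in gWAT. The median deviation of the core genes was -0.40, -0.26 and -0.31 on the gWAT controls of slide 2 and 0.01 on control replicate 4, which shared slide 3 with the arrays labelled knockout and was the highest control in 74 of 76 core genes. On the arrays labelled knockout, all on slide 3, it was 0.08, 0.17, 0.14 and -0.23, the last of these near the controls of slide 2. Control replicate 1, the first of the values above, also differed in the summed epididymis and testis markers, 9 genes, at 3.94 against -1.65 to -0.18 on the other controls, and their part was not tested. When the slide entered as a fixed block, so that those 4 arrays were compared with that single control, no member was past the threshold in limma, 1 was higher and 1 lower at an unadjusted p of 0.05, and the median difference was 0.04. Replicate 4 of the arrays labelled knockout, from the mouse given as 14 weeks old, was the lowest of its group in 75 of 76 core genes. Its summed macrophage markers, 8 genes all well above background, stood at 7.46, against 6.04 to 6.80 in the other 3. The part of these markers or of age was not tested. Without it, 27 members were higher and 1 lower, and without control replicate 4, 15 were higher and 1 lower. With control replicate 2 or 3, or replicate 1, 2 or 3 of the arrays labelled knockout, left out, 3 were higher, and without control replicate 1, 4 were. These counts with an array left out stand without the share of all genes in the same fit. They therefore give no result particular to the members.

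**Figure D3:**
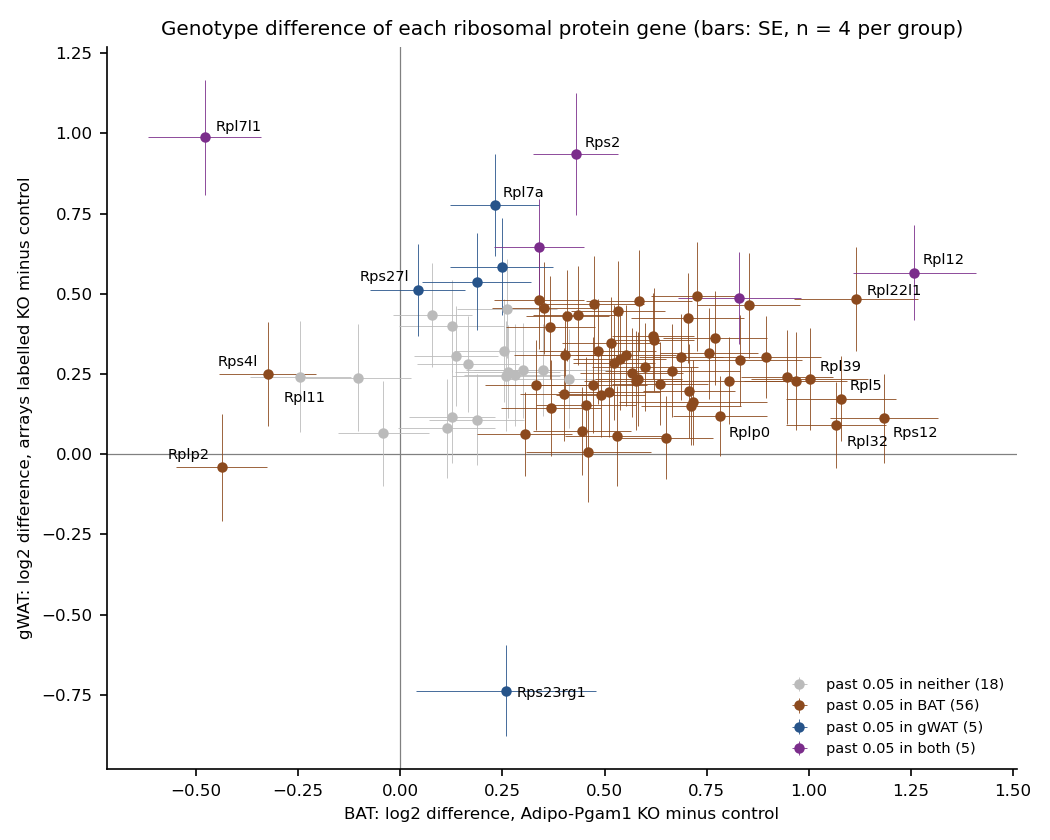
Each point is a member tested in both tissues, other than Rpl3, with its log2 difference between genotypes in BAT on the horizontal axis and in gWAT on the vertical axis. Bars are standard errors with 4 arrays per group, and colours give the tissue in which the adjusted p was under 0.05. Of the 84 genes, 56 were past the threshold in BAT alone, 5 in gWAT alone and 5 in both. Among those past it in both, Rpl7l1 is the gene that was lower in BAT and higher in gWAT.

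The genotype difference itself differed between the tissues for 20 of 86 members, which is 23.3%, against 48.3% of all 14820 genes tested in the interaction. For 16 members the difference was more positive in BAT, against 21% of all genes, and for 4 it was more positive in gWAT, against 27.4%. This balance depends on the scaling, with 2 in BAT and 23 in gWAT under Actb scaling and 74 and 1 under quantile normalization. The largest values in the direction of BAT were those of Rps12 at -1.07 (SE 0.18, limma adjusted p = 3.45e-04), Rps23rg1 at -0.995 (SE 0.27), Rpl32 at -0.98 (SE 0.17), Rpl5 at -0.91 (SE 0.18), Rpl39 at -0.77 (SE 0.21) and Rpl36a at -0.74 (SE 0.19). In these, other than Rps23rg1, a rise in BAT stood beside a gWAT difference of 0.09 to 0.23. Rplp0 belonged to the same set, at -0.66 (SE 0.16). In the direction of gWAT were Rpl7l1 at 1.47 (SE 0.23, limma adjusted p = 1.64e-04), Rps4l at 0.57 (SE 0.20), Rpl7a at 0.55 (SE 0.19) and Rps27l at 0.47 (SE 0.18). The value of Rpl7a was -0.06 under quantile normalization and -0.09 with the mean of its probes. Across 75 core genes the differences in the tissues had a Spearman's rho of -0.03, given as a description since the genes share arrays. With the slide as a fixed block, 5 members were past the threshold in the direction of BAT and 1 in that of gWAT.

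Between the depots of littermate controls, members differed in either direction. BAT was higher than gWAT in 24 of 86 members (27.9%), against 35.4% of all 14304 genes, and lower in 7, against 29.3%, and 64.7% of all genes differed in either direction. The counts depend on the scaling, with 3 higher and 68 lower under quantile normalization, where 13 of the 31 members past the threshold kept their direction, and 81 higher and 0 lower under Actb scaling, where 24 did. The share of all genes under these scalings is not given. The groups were apart in 20 members with BAT higher and in 10 with BAT lower, and in 60.8% of all genes. The median difference was 0.11 over the members and 0.10 over all genes. Rpl39l was the most depot-specific member. It was well above background on all 4 BAT control arrays and on 1 of 4 gWAT control arrays, where it stood between -6.64 and -3.59. Set against the lowest signal well above background on each gWAT array, it was at least 16.1-fold higher in BAT. It passed the filter through BAT alone, so no p-value is given for this bound. Rpl7l1 was higher in BAT by 1.33 (SE 0.14), and Rps27l, at 6.62 to 6.79 in BAT and 5.31 to 5.77 in gWAT, by 1.08 (SE 0.13). Rpl7a, Rpl19 and Rps2 were higher by 0.83 (SE 0.14), 0.69 (SE 0.12) and 0.62 (SE 0.16). Among the genes that were lower in BAT controls, Rps12 differed by -0.73 (SE 0.12), Rpl32 by -0.45 (SE 0.11), Rpl22l1 by -0.43 (SE 0.14), Rpl39 by -0.42 (SE 0.12), Rpl32l by -0.34 (SE 0.11) and Rpl5 by -0.33 (SE 0.11). In the genotype comparison, which uses the same BAT control arrays, these 6 genes had differences of 1.18, 1.07, 1.12, 1.0, 0.95 and 1.08. The direction of all 6 turned under Actb scaling, and quantile normalization turned that of Rpl19, so these depot directions depend on the scaling. Depot and slide were nearly confounded as well. BAT control replicates 1 to 3 lay on slide 1 and gWAT control replicates 1 to 3 on slide 2. Of the other controls, BAT replicate 4 lay on slide 2 and gWAT replicate 4 on slide 3. Comparing within slides thus leaves 1 BAT control, too few to separate depot from slide. All 31 members past the threshold, the lower ones included, kept their direction in that fit, but not all of them were still past it. With 1 BAT control, this agreement does not decide between depot and slide. Rpl7l1 and Rps27l kept their direction under every setting tried.

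Between the depots of the arrays labelled Adipo-Pgam1 KO, 18 of 86 members (20.9%) were higher in BAT, against 23.4% of all 14449 genes, with a median of 0.32 beside 0.05 over all genes. None was lower in limma, at an unadjusted p of 0.05 or in the methods' t-test. The groups were apart in 14 members, all with BAT higher, against 21.9% of all genes in that direction and 43.1% in either. Each of these groups lay on a slide of its own. In the fit of all 16 arrays with a fixed slide block, controls on the same slides carry the slide term. For slide 3 this rests on gWAT control replicate 4 alone, the highest gWAT control in 74 of 76 core genes. In that fit 12 members were higher, and 8 of the 18 were still past the threshold. With the replicate number as a block, 11 of the 18 were. Among these were Rps23rg1 at 1.15 (SE 0.17), Rplp0 at 0.79 (SE 0.13), Rpl13a, a 60S protein, at 0.71 (SE 0.16), the 40S protein Rps7 at 0.66 (SE 0.15), and Rps27l at 0.61 (SE 0.14). Rpl39l, above background on 2 of 4 gWAT arrays labelled knockout, was at least 42.9-fold higher in BAT by the same bound. The count rose to 48 members without replicate 1 of the BAT knockout, and fell to 9 without replicate 2, 11 without replicate 3 and 12 without replicate 4. The share of all genes in these fits is not given, so the shifts are not particular to the members.

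Other genes that serve translation were set beside all genes tested in BAT, of which 27.5% rose and 34% fell. Of 64 ribosome biogenesis factors tested in BAT, 29 rose (45.3%) and 5 fell (median 0.32), with Npm1, a nucleolar chaperone, higher by 1.19 (SE 0.15), and Nop58 and Nop56, core proteins of the particles that methylate ribosomal RNA, by 1.08 (SE 0.18) and 1.08 (SE 0.09). Nop10, part of the pseudouridylation particles, was lower by 1.09 on the log2 scale. Tsr2 and Nol6 had differences of -0.68 (SE 0.15) and -0.46 (SE 0.11). Of 48 translation factors, 15 rose (31.2%, near the share of all genes) and 7 fell (median 0.04). Among them were Eef2k, the kinase that inhibits elongation, at 1.02 (SE 0.19), Eif4g3 at 0.96 (SE 0.15), Eif3a at 0.93 (SE 0.09), Eif4g1 at -0.72 (SE 0.13), Eif3l at -0.62 (SE 0.11) and Eif2s3x at -0.60 (SE 0.15). Of 19 RNA polymerase I genes, 5 rose (26.3%, also near that share) and 5 fell (median -0.01), with Taf1b at 0.92 (SE 0.12) and Ubtf, the factor that binds ribosomal DNA, at -1.39 (SE 0.12). Of 19 other genes with TOP mRNAs, some of which are also in the previous lists, 9 rose (47.4%) and 1 fell (median 0.27). Hnrnpa1 and Nap1l1 were higher by 1.13 (SE 0.12) and 0.93 (SE 0.14), and Fau, the ubiquitin-like fusion with a 40S protein, had a difference of -0.07 (SE 0.13). The proteins of the mitochondrial ribosome, also encoded in the nucleus, went the other way: 69 of 78 (88.5%) fell in BAT (median -0.73) and none rose in limma, at an unadjusted p of 0.05 or in the methods' t-test. In gWAT, 15 of the 78 (19.2%) were higher (median 0.44), against 9.99% of all genes. The genotype difference was more positive in gWAT than in BAT for 72 (92.3%), against 27.4% of all genes.

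**Figure D4:**
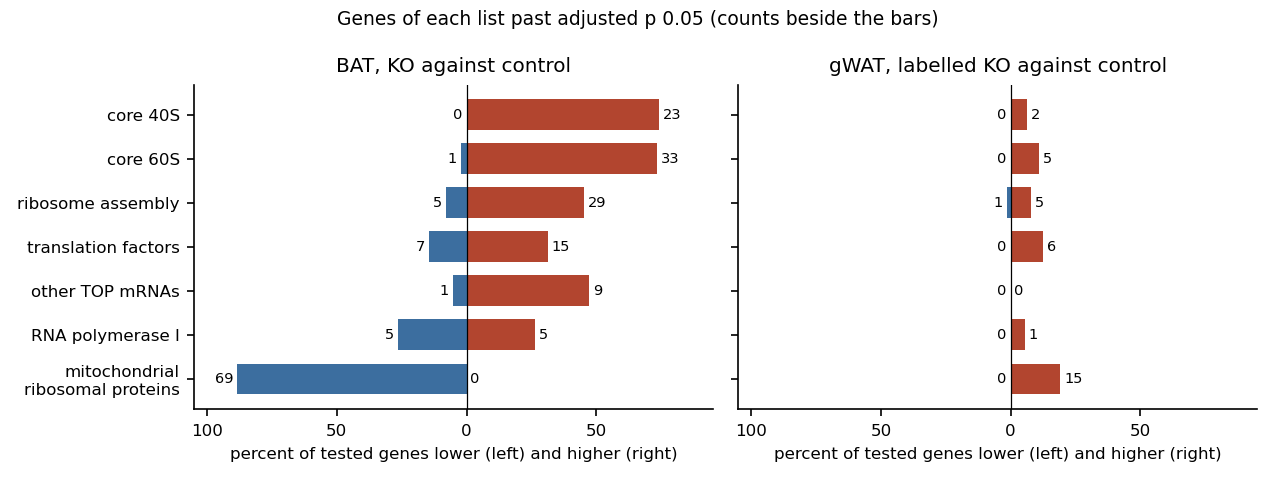
Bars give the percent of tested genes of each list with an adjusted p under 0.05 that were lower (left, blue) or higher (right, red) in BAT of Adipo-Pgam1 KO mice and in the gWAT arrays labelled knockout, and the counts stand beside the bars. In BAT, 23 core 40S and 33 core 60S genes were higher, whereas 69 mitochondrial ribosomal protein genes were lower.

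Cell type markers moved with the BAT comparison. All 8 adipocyte markers fell, with a summed log2 level of 11.48 to 11.72 in controls and 9.85 to 10.31 in Adipo-Pgam1 KO mice. Of 8 macrophage markers, 7 rose (4.79 to 5.25 in controls and 6.49 to 7.04 in the knockout), and all 6 fibroblast markers rose (6.93 to 7.40 and 7.84 to 8.37). Of 8 brown adipocyte markers, 6 fell (11.6 to 11.7 in controls and 10.1 to 10.8 in the knockout). All of these markers were well above background on all BAT arrays. Of 6 T cell markers tested, 4 rose (median 1.56), and 2 had lower values, 1 of them with the groups apart. The summed T cell levels overlapped (1.87 to 2.66 in controls and 2.13 to 2.75 in the knockout). Of 3 neutrophil markers tested 1 fell, and the summed level was lower (6.85 to 7.18 and 6.44 to 6.56). Of 6 endothelial markers 1 fell and none rose past the threshold, with overlapping sums (4.34 to 4.77 and 4.05 to 4.50). Over all genes tested, 27.5% rose and 34% fell. The part of these cell types in the ribosomal protein genes was not tested.

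Since the brightest probe stood for its gene, the other probes were compared with it. In BAT, 45 members had several probes well above background on all arrays, and in 42 all probes changed in the same direction. Among the 34 of these past the threshold, 33 did so. In gWAT all probes agreed in direction for 40 of 45. Outside the members, the genes whose levels followed the mean of the core genes most closely over the 16 arrays, of 12275 genes ranked, were Rpl31-ps12, a ribosomal pseudogene, with a Pearson's r of 0.976, Krtap4-6 with 0.976, Snhg6 with 0.970, Eef1b2 with 0.960 and Sec61g with 0.957. These points share arrays and groups, and the values are given as a description.

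Rplp0 and Actb, the reference genes of the study's PCR, were compared by their array levels, and no PCR values were examined. Actb was higher by 0.40 (SE 0.11) in BAT of Adipo-Pgam1 KO mice, with a limma adjusted p of 0.0127, and differed by 0.00 in gWAT (SE 0.16). Rplp0 minus Actb lay between -1.40 and -0.84 in BAT controls, and between -0.90 and -0.61 in the BAT knockout, so these groups overlapped. In gWAT it ranged from -2.37 to -1.81 for controls and from -2.08 to -1.76 for arrays labelled knockout.

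Scaling to the spike-ins or Actb shifts all genes of an array alike, whereas quantile normalization does not. The median difference of all genes tested in BAT was -0.08 with the 75th percentile, 0.02 with quantile normalization, 0.46 with spike-in scaling and -0.48 with Actb scaling. The median of the members was 0.47, 0.84, 1.02 and 0.07 in the same order, and the members stood 0.55 above all genes with the 75th percentile, spike-in or Actb scaling and 0.83 with quantile normalization. Under Actb scaling 19 members rose and 8 fell, given without the share of all genes under that scaling. In gWAT, the members stood 0.21 above all genes with the 75th percentile and 0.01 with quantile normalization, and in the depot comparison of controls 0.02 above and 0.54 below.

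**Figure D5:**
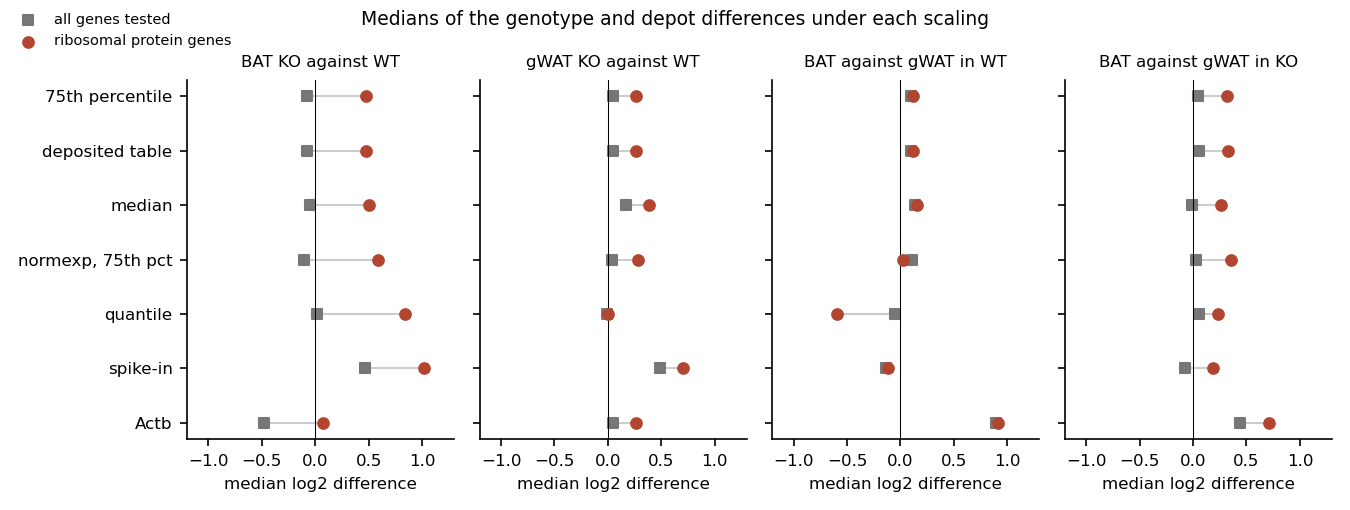
For 4 comparisons, red points give the median log2 difference of the ribosomal protein genes and grey squares that of all genes tested (horizontal axis), under 7 ways of scaling the arrays (rows). The members lie above all genes in BAT under each scaling, whereas in the depot comparison of controls they lie below under quantile normalization.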

How the data were processed

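RNA was measured on 16 single-colour Agilent arrays of 56605 probes. The authors deposited scanner intensity values, background-subtracted by Agilent Feature Extraction 10.7.1.1 per the labels, with flags for well-above-background and outlier spots, and a table of normalized signal values, which matched intensity over the 75th percentile of the array. The labels give 100 ng of RNA per array and the methods another amount. Here, outlier spots were dropped, spots of a probe averaged, and log2 intensity taken minus that of the 75th percentile. RefSeq accessions gave symbols to 32994 of 35886 RefSeq probes (91.9%). The brightest probe stood for each gene. Genes well above background on all 4 arrays of a group compared were tested with limma 3.58.1 in R 4.3.3 (Benjamini-Hochberg over all genes, 0.05), and tables were made with Python 3.11.15 and pandas 2.3.3. The interaction used all 16 arrays. The labels do not say that arrays of a group came from separate animals, so p-values measure the spread between these samples, and precision is limited by the number of arrays. On simulated data, the fit recovered 8% of true log2 rises of 0.5 in BAT and 4% in gWAT. For true rises of 1 it recovered 62% and 50%, so a member not past the threshold is not shown to be unchanged.

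Members, gene lists and tests were chosen with earlier results of these data known. Named genes were the stalk proteins and Rpsa, paralogs with partners, the 6 largest rises and falls past the threshold per comparison, the 3 of each other list, Pgam1, Actb and the 5 genes most like the core mean. Some genes that the rule names are not reported here. Genes shown for their promoters, and Rpl11, were chosen after their values were seen. Alternatives were other scalings (median, quantile, 7 spike-in probes, Actb), normexp background correction with an offset of 50 (on the median signal, since the files have no mean signal), the deposited table, other filters, the mean of probes, slide blocks, a replicate block, each array left out, all arrays in 1 fit and the methods' t-test. Same-numbered arrays correlated in their deviations from group means over 0.1 in 1 of 4 pairs in BAT, 1 in gWAT, 3 between depots in controls and 2 in the knockout. The main fits did not take the numbers as pairs, but these correlations do not decide whether the arrays are paired. The labels do not say whether same-numbered BAT and gWAT arrays share a mouse, though replicate 4 of the knockout is 14 weeks old in both, and the depot and interaction fits treat them as separate.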

Additional observations from a re-analysis of the deposited data

Results flagged for a closer look

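Among 25 named members, 100 groups of 4 arrays were examined for an array far from the other 3, and 8 had one. Chance alone gives about 1 in 20. The BAT knockout group had a low array, always replicate 1, for Rpl19 (7.01), Rpl32 (7.53) and Rpl7a (7.28). The gWAT arrays labelled knockout had a low array, always replicate 4, for Rpl12 (7.05), Rpl36a (6.25) and Rpl36al (4.82). A high array was found for Rpl36a in gWAT controls (6.59) and for Rps27l in BAT controls (6.79).

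The genotype difference in gWAT minus that in BAT was past the threshold in limma for 16 named members, with gWAT directions resting on the label. It was negative for Rps12 (-1.07), Rps23rg1 (-0.995), Rpl32 (-0.98), Rpl5 (-0.91), Rpl39 (-0.77), Rpl36a (-0.74), Rpl32l (-0.71), Rpl12 (-0.69), Rplp0 (-0.66), Rpl22l1 (-0.63), Rps7 (-0.59) and Rpl13a (-0.58). It was positive for Rpl7l1 (1.47), Rps4l (0.57), Rpl7a (0.55) and Rps27l (0.47).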

How the results depend on the processing

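In BAT, the 60 rises and 3 falls became 19 and 8 with Actb scaling, and the falls were 1 with quantile normalization (alone or after normexp), 0 with spike-in scaling and 0 with a fixed slide block, also in the fit of all 16 arrays. Leaving out 1 array gave 50 to 72 rises and 2 to 4 falls, with a member median of 0.41 to 0.58, 0.49 to 0.66 above all genes. Directions turned for Rplp2 (0.36 quantile, 0.11 spike-in, 0.48 normexp with quantile), Rpl11 (0.38, 0.30 and 0.36 in the same order, and 7.91e-04 with the fixed slide block in either fit), Rps4l (0.22 spike-in, 0.00802 normexp with quantile), Rpl7l1 (0.0652 spike-in) and Rps27l (-0.36 Actb, -0.00172 mean of probes, -0.0257 without BAT knockout replicate 4, up to 0.121 without replicate 1).

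In gWAT, the 9 higher members became 5 with quantile normalization (also after normexp), 3 with median centring, 81 with spike-in scaling, 18 with normexp, 3 with no filter, 26 in the fit of all arrays and 31 in the methods' t-test unadjusted. With the fixed slide block, in either fit, 0 were higher and 0 lower, and the lower count was also 0 with median centring and spike-in scaling. Leaving out 1 array gave 3 to 27 higher and 1 lower, with a median of 0.21 to 0.36, 0.16 to 0.31 above all genes. Directions turned for Rplp0 (-0.23 quantile, -0.18 normexp with quantile), Rpl32 (-0.22, -0.19, and -0.0343 with the slide block in either fit), Rpl39 (-0.0670 quantile), Rpsa (-0.0109, -0.0194, and -0.0570 with the slide block), Rps4l (-0.0756 with the slide block) and Rplp2 (0.0807 median centring, 0.40 spike-in, 0.0736 without control replicate 4, 0.0488 without replicate 4 of the arrays labelled knockout).

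Between the depots of controls, the 24 higher and 7 lower members became 3 and 68 with quantile normalization, 3 and 69 after normexp too, 12 and 22 with spike-in scaling, 81 and 0 with Actb scaling, 13 and 1 with median centring and with the fixed slide block, and 11 and 1 with that block in the fit of all arrays. The lower count was 11 with normexp and 13 in the methods' t-test unadjusted. The median became -0.59 (quantile), -0.58 (after normexp) and -0.12 (spike-in), and relative to all genes -0.54, -0.53 and, with no filter, -0.18. Leaving out 1 array gave 16 to 32 higher and 4 to 9 lower, with a median of 0.06 to 0.18, -0.01 to 0.08 relative to all genes. Directions turned for Rplp0 (-0.62 quantile, -0.57 normexp with quantile, -0.10 spike-in), Rpl19 (-0.0405, -0.0324) and, with Actb scaling, Rpl22l1 (0.36), Rpl32 (0.34), Rpl32l (0.46), Rpl39 (0.38), Rpl5 (0.46) and Rps12 (0.0600).

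Between the depots of the arrays labelled knockout, the 18 higher members became 6 with spike-in scaling, 84 with Actb scaling, 11 with median centring, 39 in the fit of all arrays, 33 there with a random slide block, 12 there with a fixed one (8 of the 18 among them) and 30 in the methods' t-test unadjusted. Leaving out 1 array gave 9 to 48 higher and 0 lower, with a median of 0.23 to 0.43, 0.22 to 0.37 above all genes. Rpl7l1 turned to 0.25 with Actb scaling and 0.0375 with the fixed slide block in the fit of all arrays.

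In the interaction, the 4 members more positive in gWAT and 16 in BAT became 1 and 74 (quantile), 1 and 73 (after normexp), 23 and 2 (Actb, with a median of 0.16), 2 and 6 (median centring), 2 and 30 (normexp), and 1 and 5 (fixed slide block). The first count was 2 with spike-in scaling and 1 with a random slide block. Leaving out 1 array gave 2 to 9 and 13 to 31, with a median of -0.32 to -0.14, -0.40 to -0.21 relative to all genes. Rpl7a turned to -0.0557 (quantile), -0.14 (after normexp) and -0.0893 (mean of probes).

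With the replicate block, 1 member was higher in gWAT and 11 between the depots of the arrays labelled knockout, and the other member counts stayed within 1.5 times. Of the depot calls, 22 of 31 in controls and 11 of 18 in the arrays labelled knockout were still past the threshold. Whether same-numbered BAT and gWAT arrays came from 1 mouse is not given in the labels. Over the single genes named and all settings, 1410 values kept direction and side of the threshold, 171 were no longer past it, 24 newly were and 47 turned. The cause of these changes was not tested. Member counts under other settings stand without the share of all genes past the threshold in the same setting. Fits of all 16 arrays with the slide were chosen after seeing the data. Rpl37, Rpl3l and Rpl10l were too dim for a test, with 1, 4 and 0 arrays well above background.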

Other observations

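In gWAT, 5 of 64 biogenesis factors (7.81%) were higher and 1 lower, and 6 of 48 translation factors (12.5%) were higher and 0 lower in limma (1 lower at an unadjusted p of 0.05 and 0 in the methods' t-test), shares near the 9.99% of all genes that were higher there. Bysl, Pno1 and Bop1, which act in subunit assembly, were higher by 1.08, 0.90 and 0.77 in the arrays labelled Adipo-Pgam1 KO, and Tsr2 differed by -1.03. Among the mitochondrial ribosomal proteins, Mrps18b, Mrpl16 and Mrpl53 were higher there by 1.1, 1.03 and 1.02, and in BAT Mrps36, Mrpl34 and Mrps27 had the lowest values, at -1.65, -1.40 and -1.27.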
